A study of Mus musculus with 6 samples.

Results

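The 10 genes described here encode large proteins that fill and connect the cartilage matrix: the proteoglycans aggrecan (Acan), versican (Vcan) and perlecan (Hspg2), the link proteins Hapln1 and Hapln3, the matrilins Matn1, Matn2, Matn3 and Matn4, and cartilage oligomeric matrix protein (Comp). They were taken by gene symbol from a table of 54532 genes, and each of the 10 symbols matched 1 gene. All 10 passed the filter on low counts, as did 14801 genes of the whole table.

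RNA was measured by RNA sequencing of poly-T-selected RNA in 6 libraries, 3 from Gli1+ cells and 3 from Gli1- cells. Both populations came from C57BL/6 mice that carried Gli1-CreERT2 and a tdTomato reporter, were 1 month old and had received tamoxifen 1 day before harvest. The sort removed CD45+, CD31+ and Ter119+ cells from both, and split the rest into tdTomato+ (Gli1+) and tdTomato- (Gli1-) cells. The labels call the tissue growth plate and the cells chondrogenic, while the study's text names costal cartilage. The tdTomato label marks cells in which the Gli1 locus drove the recombinase when tamoxifen was given, and their descendants, and the tdTomato- population is whatever else passed the sort. The comparison asks how the RNA profile of Gli1+ cells differs from that of the other cells of the same cartilage. The study describes both populations as taken from the same mice but does not say how many mice each library pooled.

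Hyaline cartilage resists compression because aggrecan, loaded with negatively charged chondroitin sulfate chains, draws water into a collagen network. Many aggrecan molecules attach to 1 hyaluronan strand, and link protein locks each of these contacts. Matrilins and Comp are oligomeric adaptors that tie collagen fibrils to proteoglycans and to each other, and perlecan surrounds the chondrocytes in the pericellular matrix as well as building basement membranes elsewhere.

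The libraries held 17114101 to 18602482 counts, and a gene's level is given as CPM, its counts scaled to library size with TMM factors, unless it is said to be per kilobase of the gene length in the table. Gli1, which the sort should separate, was at 4.54, 6.38 and 7.97 CPM in Gli1+ replicates 1, 2 and 3 and at 0.72, 1.26 and 2.43 CPM in the Gli1- replicates of the same numbers. The populations did not overlap in Gli1, whose log2FC (Gli1+ minus Gli1-) was 2.09 ± 0.68 (s.e., n = 3 per population), yet it missed the threshold in edgeR (adjusted p = 0.9999). DESeq2 with the replicate number as a block called Gli1 (log2FC 2.21 ± 0.63, adjusted p = 0.0189). Gli1 was not called there without both libraries of number 2 (adjusted p = 0.503) or of number 3 (adjusted p = 0.537). Gli1+ replicate 1 had counts on 15000 genes, fewer than the 20666 to 23360 of the other 5 libraries. Deviations from the population means correlated at 0.22, 0.72 and 0.47 between libraries of numbers 1, 2 and 3, so values are also given within each number. The match was weak at number 1, where Gli1+ replicate 1 correlated slightly better with Gli1- replicate 3 (0.27). Chondrocyte markers (a list of 10 that includes Col2a1, Col9a1 and Sox9) summed to 6490 to 24665 CPM in Gli1+ libraries and 6719 to 34457 CPM in Gli1- libraries, with both libraries of number 2 the highest of their population. Of the 10, 9 had a negative and 1 a positive log2FC. DESeq2 with the block called 1 of them lower, Chad (log2FC -1.81, adjusted p = 0.000217), and 0 higher, beside 2.11% and 0.777% of all genes. edgeR called 0 of the 10. Leukocyte markers, whose carriers the sort was to remove, summed to 41.0 to 168 CPM in Gli1+ libraries and 58.0 to 3327 CPM in Gli1- libraries, the highest being Gli1- replicate 1. In sorted bulk RNA, fewer cells of a type and less RNA per cell cannot be told apart.

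In all 3 same-numbered pairs, Comp, Hapln3 and Matn1 were lower and Hspg2 and Acan were higher in Gli1+ cells. These 3 and 2 of 10 members are near the shares of all genes, 19.7% lower and 17.6% higher in 3 of 3 pairs. The cartilage matrilin Matn3 was higher in 2 pairs and lower in 1. No member passed the threshold (|log2FC| over 1 and adjusted p under 0.05) in edgeR with the 6 libraries as independent samples, where 0% of all genes passed. edgeR left 514 genes at an unadjusted p under 0.05 and limma-voom 472. With the replicate number as a block, edgeR again called 0 genes and limma-voom 0. DESeq2 with the same block called 1 member higher (Hspg2) and 2 lower (Comp and Matn1), beside 0.777% of all genes called higher and 2.11% called lower. DESeq2 without the block called 0 members, beside 0.101% of all genes in each direction. With all 6 libraries and the filter on low counts, the calls of Hspg2, Comp and Matn1 were made by DESeq2 with the block and by no other fit run. Without that filter edgeR called Matn1 (adjusted p = 0.0051), among 267 calls in 28536 genes. Without both libraries of number 1 edgeR with the block called Hapln3, Hspg2, Matn1 and Comp, among 1201 calls in 15331 genes. That fit rests on 2 pairs, which hardly measure the spread of a single gene. Its s.e. was nearly the same for Acan (0.204), Hspg2 (0.207) and Comp (0.205). The other fits without both libraries of a number rest on 2 pairs as well. In DESeq2 with the block, Hspg2, Comp and Matn1 were all called without both libraries of number 1, among 781 calls in 15331 genes. Of these 3, only Matn1 was called there without both of number 3, among 71 calls in 14741 genes. Without both of number 2, Hspg2 and Comp were not called there and Matn1 no longer passed the filter.

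**Figure D1:**
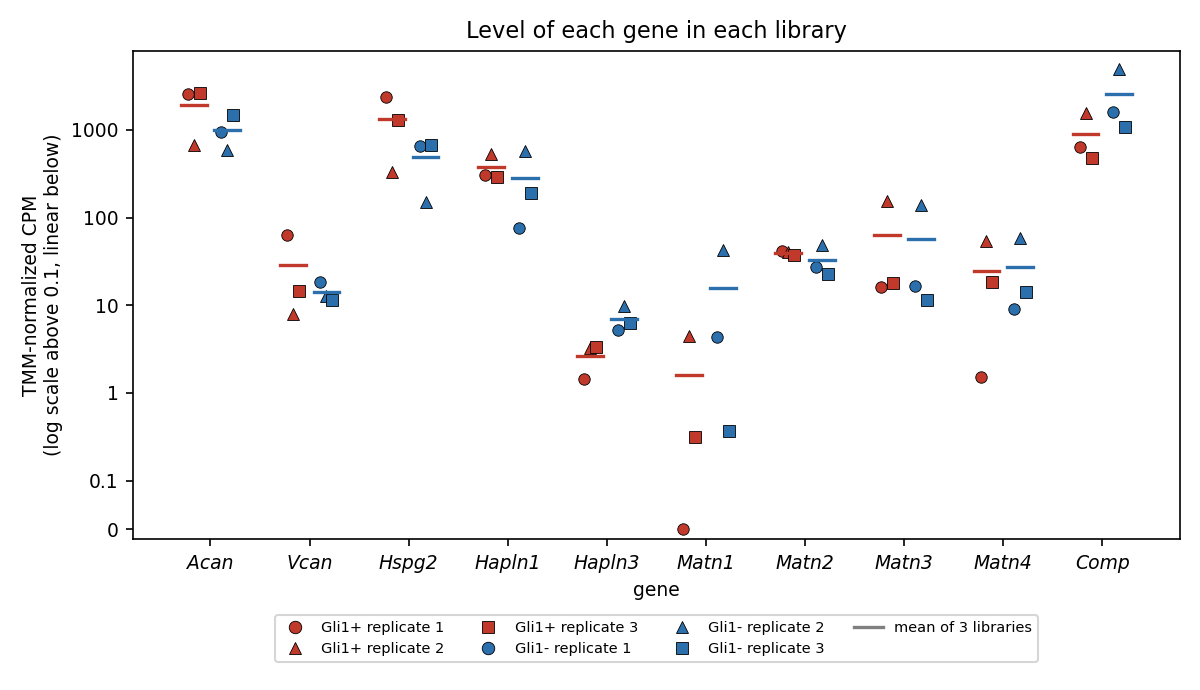
TMM-scaled CPM of each of the 10 genes in each library (logarithmic axis above 0.1 and linear below it), with Gli1+ libraries in red and Gli1- libraries in blue, the replicate number as the symbol, and a bar at the mean of 3 libraries. Hapln3 is the 1 gene whose populations do not overlap, and the Matn1 point at 0 is Gli1+ replicate 1.

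Per kilobase, the order of mean levels over the 6 libraries was Comp, Acan, Hspg2, Hapln1, Matn3, Matn2, Matn4, Matn1, Vcan and Hapln3. Per kilobase, Comp averaged 299 ± 194 (s.d., n = 3) in Gli1+ cells and 858 ± 706 in Gli1- cells, and Acan averaged 260 ± 147 and 135 ± 60.4. The ranges per kilobase of Comp and Acan overlapped over the libraries (162 to 1667 and 79.0 to 350), as did those of Acan and Hspg2 (10.6 to 166 for Hspg2) and of Hspg2 and Hapln1 (13.1 to 98.1 for Hapln1). Hapln1 and Matn3 overlapped too, Matn3 spanning 3.80 to 51.6 per kilobase. Below them, levels per kilobase ran from 3.67 to 7.87 for Matn2, 0.30 to 11.5 for Matn4, 0 to 21.6 for Matn1, 0.56 to 4.37 for Vcan and 0.41 to 2.77 for Hapln3. Each gene's range thus overlapped that of its neighbour in the order, while Matn2 lay wholly above Hapln3. Within a library the order was firmer for some genes. Acan was above Hspg2 in all 6 libraries (Hspg2 at 0.134 to 0.489 of Acan), and Hapln1 was above Matn3 in all 6. Comp was below Acan in Gli1+ replicates 1 and 3 (ratios of 0.631 and 0.464) and above it elsewhere. Hspg2 was below Hapln1 at number 2 in both populations and above it elsewhere.

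Aggrecan is the main space-filling proteoglycan of cartilage. Acan was at 2538, 676 and 2615 CPM in Gli1+ replicates 1, 2 and 3 and at 952, 590 and 1486 CPM in the Gli1- replicates. Each Gli1+ library was above its same-numbered Gli1- library, by 2.67-fold, 1.15-fold and 1.76-fold, but Gli1+ replicate 2 lay below Gli1- replicates 1 and 3, so the populations overlapped. The log2FC was 0.94 ± 0.66 (s.e., 95% confidence interval -0.57 to 2.46) with an adjusted p of 0.9999 in edgeR, and 0.79 ± 0.36 with an adjusted p of 0.296 in DESeq2 with the replicate block.

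Versican, the hyaluronan-binding relative of aggrecan in loose connective tissue and early mesenchyme, was scarce. Vcan was at 63.1, 8.03 and 14.5 CPM in Gli1+ replicates and 18.2, 12.6 and 11.5 CPM in Gli1- replicates. Gli1+ replicate 1 stood above all others, and the log2FC of 1.01 ± 0.75 turned to -0.35 without it. Per kilobase, Acan exceeded Vcan by 77.8-fold to 350-fold over the 6 libraries. The antisense gene Gm4117 held 2 to 12 counts per library. Its span, introns included, overlaps 6 Vcan exons, counted over all annotated transcripts. Whether exons of both genes overlap was not tested, and whether strand was used in counting is not given in the sources used here.

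Perlecan carries heparan sulfate chains and binds growth factors beside its role in pericellular matrix. Hspg2 was at 2379, 334 and 1306 CPM in Gli1+ replicates 1, 2 and 3 and at 662, 151 and 678 CPM in the Gli1- replicates. Number 2 was the lowest of its population on both sides, and Gli1+ replicate 2 lay below Gli1- replicates 1 and 3. The Gli1+ library was 3.60-fold, 2.20-fold and 1.93-fold above its same-numbered Gli1- library. The log2FC was 1.43 ± 0.83 (s.e., 95% confidence interval -0.48 to 3.33, adjusted p = 0.9999 in edgeR) and 1.31 ± 0.30 with the block (adjusted p = 0.381 in edgeR). In DESeq2 with the block it was 1.30 ± 0.34 at an adjusted p of 0.00818. Without both libraries of number 2 the DESeq2 value with the block was 1.38 ± 0.52 (adjusted p = 0.212), and without both of number 3 its adjusted p was 0.172.

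The link proteins hold proteoglycans onto hyaluronan, Hapln1 being the cartilage form and Hapln3 a form of wider distribution. Hapln1 was at 307, 532 and 293 CPM in Gli1+ replicates and at 77.1, 579 and 191 CPM in Gli1- replicates. The populations overlapped, Gli1- replicate 1 was the lowest library, and the log2FC of 0.42 ± 0.71 became -0.033 without it. Per kilobase, Hapln1 was 0.142 to 0.997 of Acan in Gli1+ libraries and 0.102 to 1.24 of Acan in Gli1- libraries. The highest ratios were both in libraries of number 2.

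Hapln3 was the 1 member whose populations did not overlap, in the lower direction, as in 4.43% of all genes, and no member was apart in the higher direction, as in 4.05% of all genes. It was at 1.43, 3.25 and 3.30 CPM in Gli1+ replicates (27, 53 and 63 counts) and at 5.20, 9.73 and 6.28 CPM in Gli1- replicates (101, 147 and 119 counts). All 3 Gli1+ libraries lay below all 3 Gli1- libraries, by 1.90-fold to 3.64-fold within the numbers. The log2FC was -1.41 ± 0.61 (s.e., adjusted p = 0.9999 in edgeR), and the exact 2-sided permutation test gave p = 0.1, the smallest that 3 against 3 allows. It ran from -1.60 to -1.13 when 1 library was left out, and DESeq2 with the block gave -1.47 ± 0.57 at an adjusted p of 0.164.

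Acan and Hapln3 are neighbours on chromosome 7 of mm10 (79053483 to 79115099, plus strand, and 79115102 to 79131018, minus strand), where they run towards each other and end 2 bases apart. Their levels differed widely, Acan being 28.5-fold to 837-fold above Hapln3 per kilobase, and their log2FC had opposite signs. Hapln3 was lowest in Gli1+ replicate 1, where Acan was at 2538 CPM, and highest in Gli1- replicate 2, where Acan was lowest. Yet Gli1+ replicates 2 and 3 had nearly the same Hapln3 level (3.25 and 3.30 CPM) with Acan at 676 and 2615 CPM. Hapln1 and Vcan are also neighbours, on chromosome 13 (89539796 to 89611652, plus strand, and 89655312 to 89742509, minus strand), with 43659 bases between them.

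The other members lie apart from one another, Hspg2 (137468769 to 137570630) and Matn1 (130944385 to 130955475) on chromosome 4, Matn4 on chromosome 2 (164389393 to 164405160, minus strand), Comp on chromosome 8 (70373558 to 70382066), Matn3 on chromosome 12 (8947929 to 8972028) and Matn2 on chromosome 15 (34306677 to 34436273), all on the plus strand of mm10 but Matn4.

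Among the matrilins, Matn1 and Matn3 belong to cartilage, whereas Matn2 and Matn4 are found in other connective tissues as well. Matn1 had 0, 73 and 6 counts in Gli1+ replicates 1, 2 and 3 and 84, 652 and 7 counts in Gli1- replicates, or 4.48 and 0.315 CPM in Gli1+ replicates 2 and 3 and 4.32, 43.2 and 0.369 CPM in Gli1- replicates. The 0 counts in Gli1+ replicate 1 allow up to 0.158 CPM (3 counts, covering counting error only). Each Gli1+ library was below its same-numbered Gli1- library, but at number 3 by only 6 against 7 counts. The log2FC was -3.32 ± 1.90 (s.e., 95% confidence interval -7.68 to 1.04, adjusted p = 0.9999 in edgeR) and -3.35 ± 0.99 in DESeq2 with the block (adjusted p = 0.0279). Leaving out Gli1+ replicate 2 gave -6.61 and leaving out Gli1- replicate 2 gave -0.60. The difference in log2 CPM at number 1 depends on the prior count because of the library at 0. Without both libraries of number 2, Matn1 no longer passed the filter on low counts.

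Matn3 was at 16.1, 156 and 17.8 CPM in Gli1+ replicates and 16.5, 141 and 11.5 CPM in Gli1- replicates. Both libraries of number 2 stood far above the rest, and within numbers the populations differed by at most 1.55-fold. Its log2FC was 0.16 ± 1.16 with independent libraries and 0.24 ± 0.27 with the block (95% confidence interval -0.44 to 0.92 in edgeR), an interval whose ends lie within 1 log2 unit of 0.

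Matn4 was at 1.53, 54.3 and 18.3 CPM in Gli1+ replicates and 9.05, 59.3 and 14.1 CPM in Gli1- replicates, again highest at number 2. Its populations overlapped with a log2FC of -0.15 ± 1.11, and its largest difference within a number was at number 1, where Gli1- was 5.91-fold higher. The Rbpjl gene on the opposite strand had 0 to 81 counts per library. Its span, introns included, overlaps 4 Matn4 exons, counted over all annotated transcripts. Whether exons of both genes overlap, so that reads of one could be counted for the other, was not tested. Matn2 varied least of the 10, at 42.2, 40.3 and 37.3 CPM in Gli1+ replicates and 27.3, 49.3 and 23.0 CPM in Gli1- replicates, with a log2FC of 0.26 ± 0.42 (95% confidence interval -0.70 to 1.23).

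Cartilage oligomeric matrix protein is a pentameric thrombospondin that binds collagen fibrils and matrilins in cartilage and tendon. Comp was at 636, 1546 and 482 CPM in Gli1+ replicates 1, 2 and 3 and at 1605, 4945 and 1087 CPM in the Gli1- replicates. Each Gli1+ library was below its same-numbered Gli1- library, by 2.52-fold, 3.20-fold and 2.26-fold, but Gli1+ replicate 2 lay above Gli1- replicate 3, so the populations overlapped. The means were 888 ± 575 CPM (s.d., n = 3) in Gli1+ cells and 2546 ± 2094 CPM in Gli1- cells. The log2FC was -1.52 ± 0.76 (s.e., 95% confidence interval -3.26 to 0.22, adjusted p = 0.9999 in edgeR), and with the block -1.40 ± 0.26 (adjusted p = 0.350 in edgeR). DESeq2 with the block gave -1.41 ± 0.30 at an adjusted p of 0.000367. Without both libraries of number 2 the DESeq2 value with the block was -1.27 ± 0.50 (adjusted p = 0.249), and without both of number 3 its adjusted p was 0.154.

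Markers of the superficial zone (Prg4, Cilp, Erg, Thbs4 and Clu) were, like Comp, lower in Gli1+ cells at every number, as were 19.7% of all genes. Over the numbers they did not all follow Comp. Prg4 was lowest at number 2 in both populations (79.7 CPM in Gli1+ and 193 CPM in Gli1-), where Comp was highest. The 5 genes summed to 1099, 3403 and 1755 CPM in Gli1+ replicates 1, 2 and 3 and to 5155, 12436 and 5370 CPM in Gli1- replicates, with no overlap and none at 0 in all libraries. Clu made up most of each sum, at 835, 3100 and 1566 CPM in Gli1+ replicates and 4610, 11198 and 4827 CPM in Gli1- replicates. DESeq2 with the block called all 5 lower, beside 2.11% of all genes, while edgeR called 0 genes of any marker list. The lists were drawn up with earlier results of these data known, so counts of called markers cannot measure an enrichment. Fibroblast and perichondrium markers (8 genes) summed to 122 to 1290 CPM in Gli1+ libraries and 550 to 4688 CPM in Gli1- libraries, with 4 called lower by DESeq2 with the block. Tendon and muscle markers (7 genes) summed to 10.2 to 105 CPM and 16.0 to 284 CPM. Hypertrophic chondrocyte markers (6 genes) summed to 6556 to 8316 CPM in Gli1+ libraries and 2229 to 9543 CPM in Gli1- libraries. DESeq2 with the block called Mmp13 of them higher and Col10a1, the collagen that defines these cells, lower (log2FC -2.15, adjusted p = 6.28e-07). Col10a1 was at 34.6, 284 and 71.8 CPM in Gli1+ replicates and 160, 1778 and 209 CPM in Gli1- replicates, lower in Gli1+ cells at every number. Endothelial and erythroid markers (9 genes) summed to 2.96 to 6.44 CPM and 3.91 to 27.2 CPM. What part the mix of cells had in the level of Comp or any other member was not tested.

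**Figure D2:**
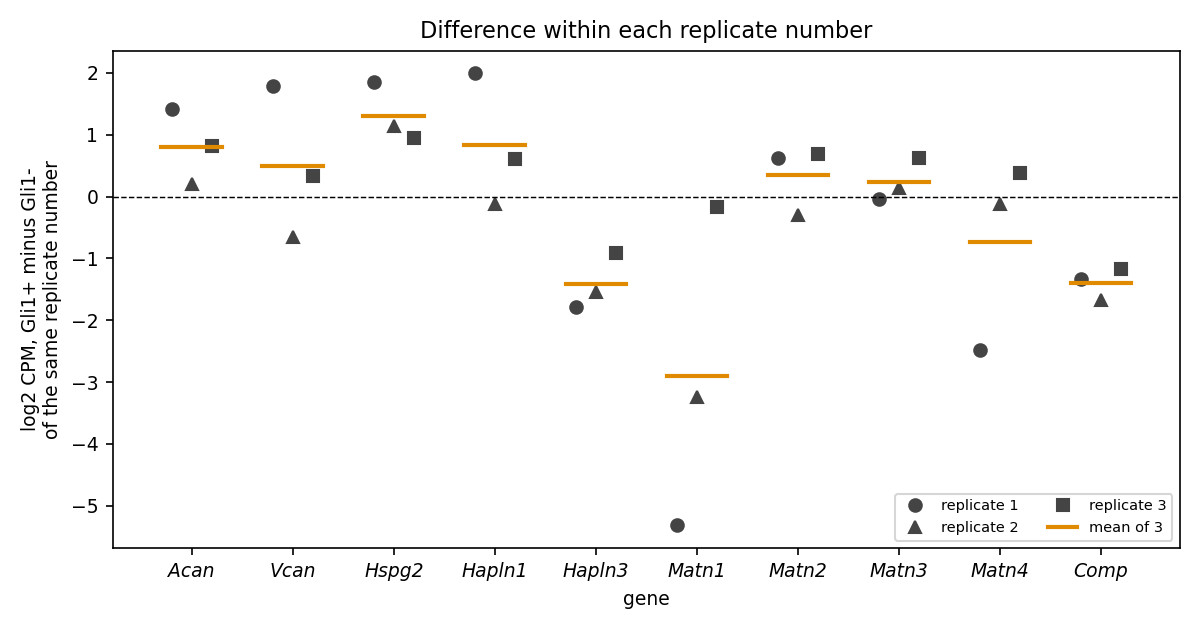
Difference in log2 CPM between the Gli1+ and the Gli1- library of the same replicate number, for each gene, with the number as the symbol and a bar at the mean of 3 differences (the Matn1 value at number 1 depends on the prior count, since its Gli1+ library is at 0). Acan and Hspg2 lie above 0 at all 3 numbers, and Hapln3, Matn1 and Comp lie below 0 at all 3.

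Over all 10 genes, 6 had a positive and 4 a negative log2FC, with a median of 0.21 beside 0.0013 over all genes. Within the numbers, 2 genes were higher in 3 of 3 pairs (Acan and Hspg2) and 3 were lower in 3 of 3 pairs (Hapln3, Matn1 and Comp), beside 17.6% of all genes higher and 19.7% lower in 3 of 3 pairs. Those shares of the members are near the background. At an unadjusted p under 0.05 in edgeR without the block, 0 members were higher and 1 was lower (Hapln3), beside 1.43% and 2.04% of all genes. With the block, 1 member was higher (Hspg2) and 3 were lower (Hapln3, Matn1 and Comp), beside 3.36% and 5.25% of all genes. The block lowered the median s.e. of log2FC from 0.75 to 0.38 over the members and from 0.64 to 0.42 over all genes.

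**Figure D3:**
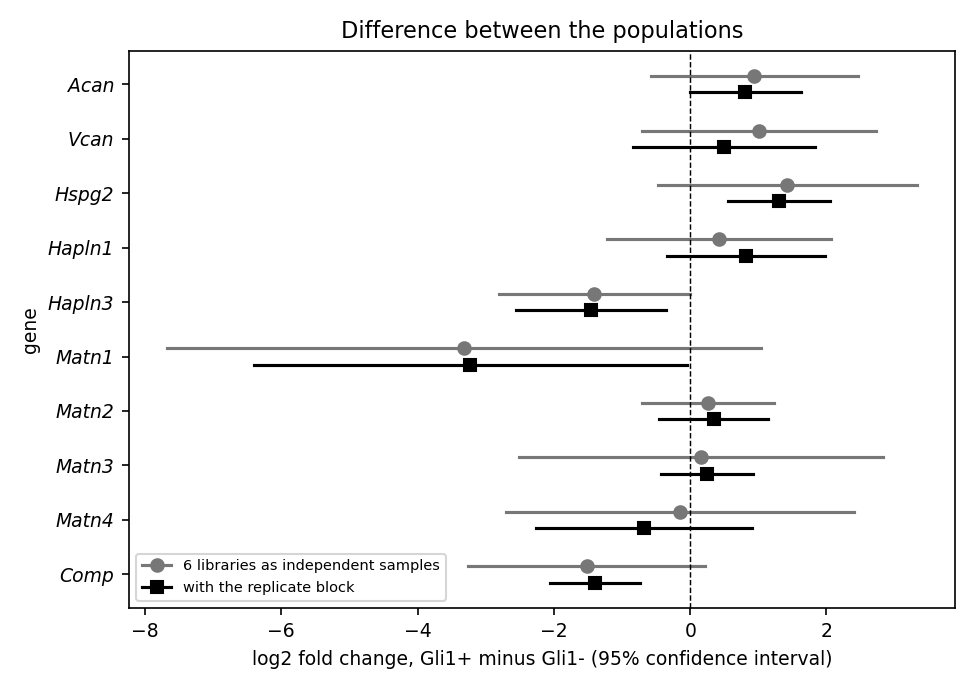
log2FC of each gene (Gli1+ minus Gli1-) with its 95% confidence interval in edgeR, with the 6 libraries as independent samples (grey circles) and with the replicate number as a block (black squares). With the block the intervals of Hspg2, Hapln3, Matn1 and Comp lie to 1 side of 0, and after adjustment over all genes none of the 4 passed in edgeR.

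The make-up of the matrix transcripts differed between populations and between numbers. Of the summed level per kilobase of the 10 genes, Comp held 27.2%, 65.3% and 24.2% in Gli1+ replicates 1, 2 and 3 and 72.7%, 85.7% and 55.7% in Gli1- replicates. Acan held 43.0%, 11.3% and 52.2% in Gli1+ replicates and 17.1%, 4.06% and 30.2% in Gli1- replicates. At each number the Gli1+ library had the larger Acan share and the smaller Comp share, and Gli1+ replicate 2 was nearer to the Gli1- libraries than to its own population. The ratio of Comp to Acan per kilobase was 0.631, 5.76 and 0.464 in Gli1+ replicates and 4.24, 21.1 and 1.84 in Gli1- replicates, lower in Gli1+ cells at every number with the populations overlapping. Matrilins held 1.56%, 8.88% and 2.32% in Gli1+ replicates and 1.85%, 4.51% and 1.58% in Gli1- replicates, the highest share of each population being at number 2.

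**Figure D4:**
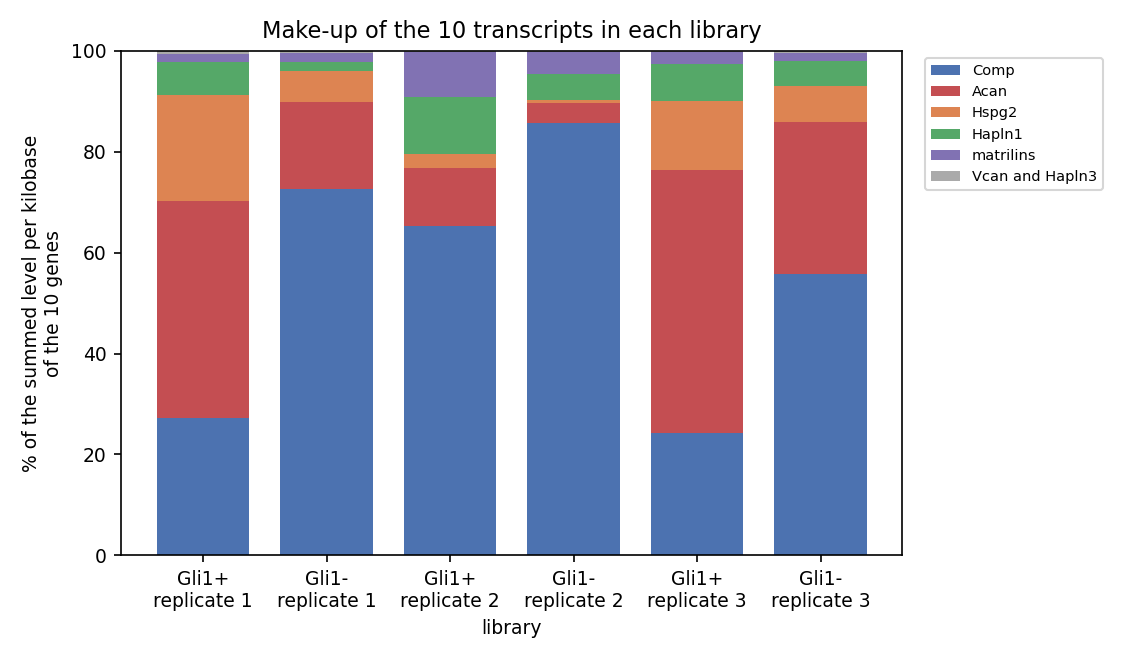
Share of each gene or gene group in the summed level per kilobase of the 10 genes, as a stacked bar for each library, with same-numbered libraries side by side. The Comp share of each Gli1+ library is below that of its Gli1- neighbour, and the matrilin share is largest in the number 2 libraries of both populations.

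Several members differed more between replicate numbers than between populations. In both populations, Matn1, Matn3, Matn4 and Comp were over 2-fold higher at number 2 than at the mean of the other 2 numbers (4 of 10 members, beside 16.5% of all genes), and Acan and Hspg2 were over 2-fold lower (2 of 10, beside 12.8% of all genes). For Matn3 this difference was 3.20 log2 units in Gli1+ and 3.35 in Gli1- libraries, and for Comp 1.48 and 1.90 log2 units. For Acan it was -1.93 and -1.01 log2 units, and for Hspg2 -2.40 and -2.14. By the same measure number 1 had 1 member above (Hspg2, beside 3.8% of all genes) and 2 below (Matn3 and Matn4, beside 6.36%), and number 3 had 0 above (beside 5.9%) and 2 below (Matn3 and Comp, beside 3.7%). Thus Acan and Hspg2 were low where Matn1, Matn3, Matn4 and Comp were high, while the number 2 difference of Matn2 was 0.023 and 0.97 log2 units. What the number stands for (mice, day or dissection) is not given in the labels.

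**Figure D5:**
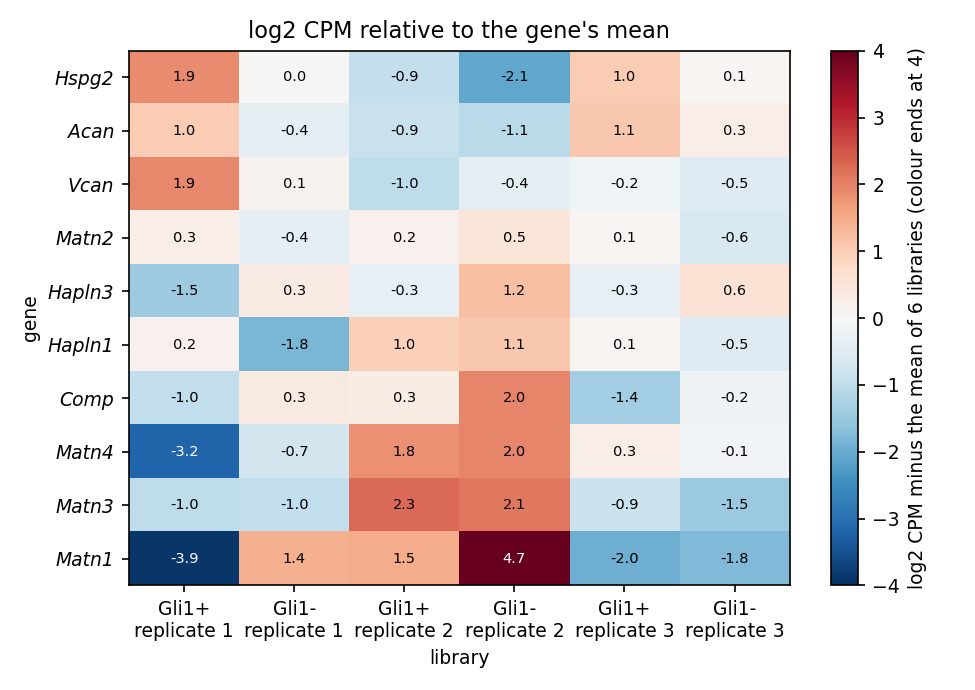
log2 CPM of each gene minus its mean over the 6 libraries, with libraries in columns, grouped by replicate number, and genes in rows. Number 2 is blue for Hspg2 and Acan and red for Comp, Matn4, Matn3 and Matn1 in both populations.

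The genes whose pattern over the 6 libraries was most like that of Acan, by the root-mean-square difference of centred log2 CPM, were Fam98a (0.157), Dcun1d2 (0.158), Gm42940 (0.182), Cacna1d (0.185) and Gm16364 (0.199). Gm42940 and Gm16364 were near 1 CPM or below. Of the other members Hspg2 came nearest to Acan, at 0.574, in position 1734 of 14800 genes, followed by Vcan at 0.795 and Matn2 at 0.993. Comp (1.89), Matn3 (2.29), Matn4 (2.43) and Matn1 (3.65) were farther. Hapln1, whose product works beside aggrecan, stood at 1.44.

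Promoters of 4 members are shown, those of Acan and Hspg2, which were low at number 2, and those of the cartilage matrilins Matn1 and Matn3, which were high there. Each is the 250 bases before the start in RefSeq on GRCm38.p6, 5′ to 3′ in the direction of the gene. Capitals mark GGGCGG, the letters of a GC box, and CCAAT, those of a CCAAT box, read on either strand, so that the reverse complement is in capitals too.
Acan, chr7:79052976-79053225, plus strand: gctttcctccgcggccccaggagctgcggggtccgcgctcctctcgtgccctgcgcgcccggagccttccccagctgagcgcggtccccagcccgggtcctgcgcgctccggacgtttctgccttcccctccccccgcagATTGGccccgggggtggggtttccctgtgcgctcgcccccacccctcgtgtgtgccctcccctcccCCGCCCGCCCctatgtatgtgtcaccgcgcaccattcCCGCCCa
Hspg2, chr4:137468553-137468802, plus strand: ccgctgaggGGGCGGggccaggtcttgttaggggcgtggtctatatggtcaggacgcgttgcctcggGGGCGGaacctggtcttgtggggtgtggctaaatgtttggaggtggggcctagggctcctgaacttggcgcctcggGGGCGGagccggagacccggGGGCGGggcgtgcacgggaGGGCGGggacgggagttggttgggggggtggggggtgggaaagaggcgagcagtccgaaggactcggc
Matn1, chr4:130944135-130944384, plus strand: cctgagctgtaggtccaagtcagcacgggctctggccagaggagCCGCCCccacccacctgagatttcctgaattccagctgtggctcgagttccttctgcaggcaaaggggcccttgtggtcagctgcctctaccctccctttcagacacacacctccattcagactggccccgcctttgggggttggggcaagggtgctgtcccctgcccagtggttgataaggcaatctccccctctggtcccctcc
Matn3, chr12:8947679-8947928, plus strand: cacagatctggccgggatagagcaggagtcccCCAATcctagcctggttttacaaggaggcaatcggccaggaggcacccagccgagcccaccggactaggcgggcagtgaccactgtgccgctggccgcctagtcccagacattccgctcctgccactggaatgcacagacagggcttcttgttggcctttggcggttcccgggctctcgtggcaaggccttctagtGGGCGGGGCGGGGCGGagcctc

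GGGCGG occurred 5 times before Hspg2, 3 times before Acan and Matn3 and 1 time before Matn1, counting overlapping copies, and 32.7% of 32851 promoters of the same length held it at least once. CCAAT occurred 1 time before Acan and Matn3, and in 33.8% of promoters. The Acan window held 26 CpG and the Hspg2 window 20, against 14 for Matn3 and 4 for Matn1, the median over all windows being 6. RefSeq windows were matched for 8 members (9 windows), of which Hapln1 (2 CpG) and Hapln3 (8 CpG) held ACAAT, a core read by SOX factors, as did 27.7% of promoters. In Hapln3 it overlapped TATAAA, which 12.4% of promoters held. No window was matched for Comp or Matn2.

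Among 102 tested genes that work with the members, edgeR called 0. DESeq2 with the block called 8 higher (7.84%) and 2 lower (1.96%), beside 0.777% and 2.11% of all genes. The lists were drawn up with earlier results of these data known, so these shares cannot measure an enrichment among partners. Without both libraries of number 2, 2 of these 10 calls were made (Has1 and Mmp13, with no adjusted p for Hmmr), and the same 2 were made without both of number 3. Without both of number 1, 9 were made, all but Fn1, which was thus called in none of the 3 (adjusted p of 0.768, 0.0923 and 0.376 without numbers 1, 2 and 3). In the relatives of the members (6 tested of 8), 3 had a positive and 3 a negative log2FC with a median of -0.42, and DESeq2 with the block called Thbs4, a thrombospondin close to Comp, lower. Thbs4 was at 91.3, 180 and 18.6 CPM in Gli1+ replicates and 206, 888 and 84.8 CPM in Gli1- replicates, lower in Gli1+ cells at every number as Comp was. Thbs1, the best expressed of them, averaged 3685 ± 623 CPM in Gli1+ cells against 2310 ± 661 CPM in Gli1- cells, with a log2FC of 0.67 ± 0.50.

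Genes of hyaluronan, the strand that carries aggrecan, had 3 positive and 9 negative log2FC (12 tested of 14, median -0.43). DESeq2 with the block called 1 higher (Hmmr, a hyaluronan receptor that also serves the mitotic spindle) and 1 lower (Has1, a hyaluronan synthase), both named after their values were seen. Hmmr was scarce, at 4.38, 5.52 and 0.84 CPM in Gli1+ replicates and 0.51, 1.32 and 0.053 CPM in Gli1- replicates (adjusted p = 0.0438 in DESeq2 with the block). The last value lies below the 0.158 CPM that 3 counts make in that library. Has1 was at 24.7, 116 and 41.6 CPM in Gli1+ replicates and 311, 529 and 212 CPM in Gli1- replicates, without overlap (adjusted p = 1.73e-08 in DESeq2 with the block). Ugdh, which makes the sugar nucleotide for hyaluronan and for chondroitin sulfate, averaged 154 ± 36.5 CPM in Gli1+ cells against 356 ± 232 CPM in Gli1- cells (log2FC -1.21 ± 0.56), and the hyaluronan receptor Cd44 averaged 1213 ± 537 and 619 ± 221 CPM (0.97 ± 0.55).

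Enzymes that build and sulfate the chains of aggrecan and perlecan (32 tested of 33) had 20 positive and 12 negative log2FC with a median of 0.14. Chsy3, a chondroitin synthase named after its values were seen, was the 1 gene called by DESeq2 with the block (log2FC 1.04, adjusted p = 0.0240). The chain starter Xylt1 averaged 442 ± 154 and 367 ± 139 CPM (log2FC 0.27 ± 0.50), and the sulfotransferase Chst11 664 ± 278 and 380 ± 71.4 CPM (0.80 ± 0.49).

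Proteases that cut these proteins, and their inhibitors (16 tested of 18), had 11 positive and 5 negative log2FC with a median of 0.25. DESeq2 with the block called Mmp13, a collagenase that also cuts aggrecan, and Mmp3, a stromelysin with a wide range of matrix substrates, higher. Mmp13 was at 5320, 2856 and 4849 CPM in Gli1+ replicates and 454, 591 and 606 CPM in Gli1- replicates, without overlap (log2FC 2.98 ± 0.54, adjusted p = 0.9999 in edgeR and 6.61e-12 in DESeq2 with the block). Mmp3 was at 5210, 7934 and 16237 CPM against 2385, 2542 and 4363 CPM (log2FC 1.66 ± 0.65, adjusted p = 0.000214 in DESeq2 with the block).

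Collagens and matrix partners (14 tested) had 5 positive and 9 negative log2FC with a median of -0.17, and DESeq2 with the block called Fn1 (fibronectin) and Col6a3 (a pericellular collagen chain named after its values were seen) higher, at adjusted p of 0.0389 and 0.00726. Fn1 averaged 46642 ± 28113 CPM in Gli1+ cells against 17222 ± 7212 CPM in Gli1- cells. Col2a1, the main cartilage collagen, was at 2838, 12219 and 3234 CPM in Gli1+ replicates and 3043, 13515 and 2125 CPM in Gli1- replicates, high at number 2 on both sides as Matn3 was. Its log2FC was -0.031 ± 0.91, and 0.12 with the block.

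Basement membrane partners of perlecan (13 tested) had 8 positive and 5 negative log2FC with a median of 0.046, and DESeq2 with the block called 1 higher, the laminin binder Nid2, at 162 ± 59.2 CPM in Gli1+ cells against 62.3 ± 16.0 CPM in Gli1- cells (adjusted p = 0.00400). The laminin chain Lamc1 averaged 207 ± 169 and 176 ± 91.7 CPM (log2FC 0.23 ± 0.67). Transcription factors of cartilage matrix genes (9 tested) had 5 positive and 4 negative log2FC with a median of 0.043, and DESeq2 with the block called Runx3 higher, which was named after its values were seen (log2FC 1.07, adjusted p = 0.0486). Sox9, the chief activator of Acan, Hapln1 and matrilin genes, averaged 310 ± 137 CPM in Gli1+ cells against 452 ± 112 CPM in Gli1- cells and was lower in Gli1+ cells at every number (log2FC -0.54 ± 0.47, adjusted p = 0.366 in DESeq2 with the block). Trps1 averaged 106 ± 66.6 and 67.9 ± 33.8 CPM (0.64 ± 0.59).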

How the data were processed

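RNA from FACS-sorted Gli1+ and Gli1- cells was sequenced in 6 libraries, 3 per population. The authors deposited a table of raw counts per gene, which the submitters' processing notes tie to HISAT2 2.0.5, featureCounts 1.5.0-p3 and mm10. The annotation and the strand setting are not given in the sources used here. Of 54532 genes, 54409 were found in GENCODE M21 and 98.3% of these had the same coordinates, as did all 10 members.

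Genes were filtered with filterByExpr (minimum count 10, leaving 14801), scaled by TMM and fitted in edgeR 4.0.16 (R 4.3.3) with its quasi-likelihood test, with Benjamini-Hochberg adjustment over all genes tested. Calls needed |log2FC| over 1 and adjusted p under 0.05, as in the study's methods. log2 CPM used a prior count of 2. Alternatives used DESeq2 1.42.0 and limma 3.58.1, 16 set with the design and 10 added after the data were seen. The model fits were tested on simulated data.

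The labels do not say what a replicate number marks. Deviations from the population means correlated at 0.22, 0.72 and 0.47 between same-numbered libraries, all over 0.1, so libraries of 1 number were treated as pairs. Gli1+ replicate 1 correlated slightly better with Gli1- replicate 3 (0.27). The study's methods call the 3 libraries of a population biological replicates and do not say how many mice each held.

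The members and lists were chosen with earlier results of these data known. Named genes were all members, Gli1, the 5 nearest to Acan and, from each list beside the members, the 2 best expressed tested genes and any gene called. Marker genes were planned as summed levels, and those given singly, such as Chad, Col10a1 and Prg4, were outside that rule. Totals of 17114101 to 18602482 counts put 3 counts at 0.154 to 0.199 CPM.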

Additional observations from a re-analysis of the deposited data

How the results depend on the processing

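With 3 libraries per population, edgeR left the log2FC of the members with a median s.e. of 0.75. edgeR called 0 genes and 0 members, and both counts stayed at 0 to 0 when 1 library was left out, as they did with the replicate block in edgeR (0 genes, 0 members) and in limma-voom. Calls appeared without the filter on low counts (267 of 28536 genes, 1 member, Matn1) and in DESeq2 (30 of 14801 genes, 0 members). They also appeared in DESeq2 with the replicate block (428 of 14801 genes, 3 members: Hspg2, Matn1 and Comp). Of fits added after the data were seen, the edgeR block without both libraries of number 1 called 1201 of 15331 genes and 4 members (Hapln3, Hspg2, Matn1 and Comp). Fits without a number rest on 2 pairs, which hardly measure the spread of a single gene. DESeq2 with the block called 781 of 15331 genes and 3 members without number 1. It called 174 of 15195 genes and 0 members without number 2, and 71 of 14741 genes and 1 member (Matn1) without number 3. The cause of these differences was not tested.

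Acan, Hspg2 and Matn2 stayed higher, and Hapln3, Matn1 and Comp lower, in Gli1+ cells under every alternative that tested them, Matn1 failing the stricter filter and the fits without number 2. Over libraries left out singly, the log2FC of Hspg2 ran from 0.69 (without Gli1+ replicate 1) to 1.87 and that of Comp from -2.20 to -0.64 (without Gli1- replicate 2). The sign turned for Vcan, which ran from -0.35 (without Gli1+ replicate 1) to 1.44 over libraries left out singly, and was -0.10, -0.15 (block) and -0.16 (DESeq2 with the block) without number 1. It turned for Hapln1, which ran from -0.033 (without Gli1- replicate 1) to 1.47, and for Matn3, which ran from -1.75 to 2.15. Matn4 ran from -1.47 to 1.08, and was 0.11 with the block without number 1 in both tools. Of the other genes named, Xylt1 ran from -0.034 and -0.020 to 0.53. Col2a1 reached 0.11 in limma-voom and in DESeq2 with the block, 0.12 with the block in edgeR and limma-voom, -1.05 to 1.21 (0.29 and 0.27 among them) with 1 library left out, 0.22 with either block fit without number 1, and 0.19, 0.22 and 0.23 without number 2. Lamc1 ran from -0.70 to 0.69 with 1 library left out, and reached -0.13 without Gli1- replicate 2 and -0.20 to -0.21 without number 1. Trps1 ran from -0.0074 to 0.98 with 1 library left out and reached -0.34, -0.35 and -0.36 without number 1. Without the filter the median log2FC of all genes moved by -0.11, and with the block and number 2 left out by -0.13, so small values there shift with it.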
